A study of Homo sapiens with 4 samples.

Results

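Chromosome 18 was represented by 1001 transcript identifiers of the form TC18000006.hg.1 among the 60789 in the deposited table, and all identifiers starting with TC18 were taken. A pair of them carried the same values on every array and was counted once, which left 1000. Of these, 155 were called bright, meaning a mean log2 signal of at least 6 over the arrays. The bright identifiers were chosen by that mean, so their levels are a description. Just outside the limit lay TC18000741.hg.1, with a mean of 5.995, and just inside it TC18000167.hg.1 with 6.004 and FHOD3 with 6.02. The chromosome was picked for description with its difference between the groups already known, so that difference is given without a test of the chromosome as a whole.

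Gene expression had been measured on 4 single-colour arrays in KYSE 170, an esophageal cancer cell line. For 2 arrays the cells were stably transfected with full-length STMN1 cDNA in the pCMV6 plasmid, and for 2 arrays with pCMV6 alone. All 4 samples had been selected with G418 at 200 µg/ml, so every cell population carried the plasmid backbone and its selection. STMN1 encodes stathmin, a phosphoprotein that destabilises microtubules. The labels speak of biological repeats and of selected clones, and do not say how many clones stand behind a group. The p-values therefore measure the spread between these samples, which may come from 1 line per group.

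Chromosome 18 is one of the gene-poor human chromosomes and tends to lie near the edge of the nucleus. Its long arm carries the desmosomal cadherin cluster, which holds squamous cells together, a cluster of serpin protease inhibitors, and the SMAD genes of the TGF-beta pathway. Its short arm carries TYMS, the enzyme that makes thymidylate for DNA synthesis, and YES1, a kinase of the SRC family. In carcinomas the long arm is a known site of loss, with SMAD4 as the best known tumour suppressor on it. None of this background is a result of these arrays.

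The identifier annotated to STMN1, which shares its annotation with MIR3917, gave 5.86 and 5.77 on the arrays labelled STMN1 and 6.11 and 6.13 on the vector arrays. Its log2 difference was -0.30 (standard error 0.14, adjusted p of 0.92 in limma), so the targeted gene was not higher on the arrays labelled as overexpressing it. Which part of the transcript its probes read, and whether they read the cDNA, is unknown here. The groups are therefore called by their labels throughout, and every direction below rests on those labels. The epithelial markers CDH1 and EPCAM and the squamous lineage factor SOX2 were bright on all arrays, with means of 14.23, 10.86 and 9.73. The squamous keratins KRT5 and KRT14 had means of 7.76 and 5.75 and lay lower on the arrays labelled STMN1, by log2 differences of -2.04 and -0.91 (adjusted p of 0.549 for each in limma). The part of these keratins in the results was not tested.

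To show the kind of neighbourhood the chromosome holds, the 250 bases before the transcription start of 3 desmoglein genes are printed. The sequences come from RefSeq (GRCh38.p14, plus strand). DSG4, numbered between DSG1 and DSG3, is left out. The genes encode desmosomal cadherins. The DSG1 identifier lay near the bottom of the scale, while DSG3 and DSG2 were bright and lay on opposite sides of the vector arrays. Capitals mark matches to GGGCGG, the core of a GC box, on either strand.
DSG1 (chr18:31317910-31318159): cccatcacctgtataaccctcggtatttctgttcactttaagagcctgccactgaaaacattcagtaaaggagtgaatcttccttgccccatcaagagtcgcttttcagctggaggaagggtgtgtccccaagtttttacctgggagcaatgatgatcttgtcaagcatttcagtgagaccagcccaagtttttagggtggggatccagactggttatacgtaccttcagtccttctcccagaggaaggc
DSG3 (chr18:31447491-31447740): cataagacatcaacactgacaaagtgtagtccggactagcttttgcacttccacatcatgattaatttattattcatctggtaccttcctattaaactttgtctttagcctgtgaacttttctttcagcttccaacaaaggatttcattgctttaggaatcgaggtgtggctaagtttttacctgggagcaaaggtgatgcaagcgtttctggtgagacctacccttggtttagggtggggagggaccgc
DSG2 (chr18:31497927-31498176): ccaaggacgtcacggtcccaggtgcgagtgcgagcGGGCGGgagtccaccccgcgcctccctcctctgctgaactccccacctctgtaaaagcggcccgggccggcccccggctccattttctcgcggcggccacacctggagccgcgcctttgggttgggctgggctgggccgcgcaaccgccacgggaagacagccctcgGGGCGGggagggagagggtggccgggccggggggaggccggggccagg

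The DSG2 window was 75.2% G and C with 26 CpG dinucleotides and 2 GGGCGG matches. The DSG3 window was 42.8% G and C with 4 CpG, and the DSG1 window 48% with 3 CpG. Neither held GGGCGG, and none of the 3 windows held the TATA motif TATAAA, the CCAAT box or the AP-1 motif TGANTCA, all searched on both strands. The sequences of 27305 promoters in the RefSeq table held GGGCGG in 42.3%, CCAAT in 33%, TATAAA in 11.1% and TGANTCA in 6.6% of windows of this length. A match is a string of letters and is not by itself a binding site.

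The annotation paired 334 of the 1001 identifiers with 1 gene symbol and 10 with several, and 657 have no symbol in it. All 334 genes lie on chromosome 18 in RefSeq (311 matched by gene number, 22 by symbol and 1 by an older symbol). They comprised 241 protein-coding genes, 39 long noncoding RNAs and 16 miRNA genes, with pseudogenes and small nucleolar RNAs making up the rest. The running number in the identifier followed the chromosome, not once but in separate runs. Numbers 1 to 271 held 127 genes with a RefSeq promoter on the plus strand and 0 on the minus strand, in the order of their positions (Spearman's rho of 1.00 between number and position over 167 genes). Numbers 272 to 593 held 109 on the minus strand and 0 on the plus strand, again in order from the short arm to the long arm (rho of 1.00 over 159 genes). Numbers 594 to 997 carried no symbol at all, and the 10 identifiers from 998 to 1007 mixed strands and positions. The chromosome is thus read along its plus strand, then along its minus strand, and within each of these runs neighbours in number are neighbours on 1 strand. Stretches of numbers that cross from 271 to 272 join the long arm end with the short arm end.

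Signal was concentrated in the runs that carry gene names. Among numbers 1 to 271, 26.9% of identifiers were bright, with a median level of 4.07 on the log2 scale. Among numbers 272 to 593 the values were 19.1% and 3.85. Among the unnamed numbers 594 to 997 they were 4.71% and 3.31, so the third run was mostly dim. The signal of an identifier depends on its own probes as well as on its RNA, so shares of bright identifiers describe this table and not amounts of RNA.

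Read in 10 blocks of 100 identifiers, the first block, numbers 1 to 101 at the end of the short arm and onward on the plus strand, was the brightest with 35% bright. The next 5 blocks held 16% to 22% bright, and the last 4, numbers 607 to 1007, held 2% to 8%. In 585 blocks cut the same way on the other chromosomes the share ran from 0.99% to 47.5%, with a median of 17.8%, and 20.7% of them lay under 10%. On single arrays the share of identifiers at 6 or more in the first block was 34% and 34% (labelled STMN1) and 35% and 35% (vector). In the second block it was 19% and 18% against 20% and 21%. In the third block, numbers 203 to 303, it was 18% and 19% against 22% and 25%, and in the fourth 18% and 17% against 14% and 16%. These shares are of values as deposited, without centring. How often blocks of the other chromosomes differ by as much was not counted.

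**Figure D1:**
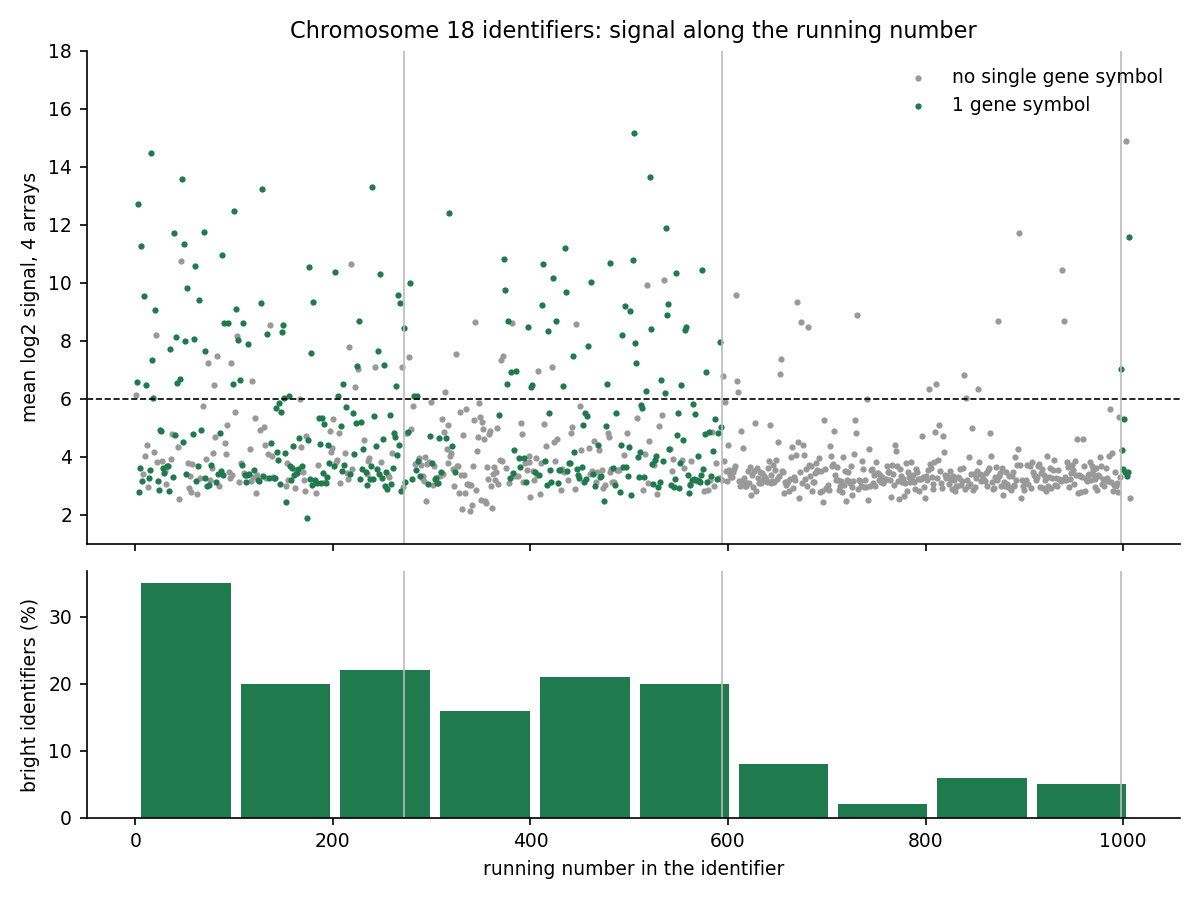
Mean log2 signal of each chromosome 18 identifier (upper panel) and percentage of bright identifiers in blocks of 100 (lower panel) against the running number. The dashed line is the brightness limit of 6, grey lines separate the runs of numbers, and bright identifiers thin out after number 593, from 19.1% to 4.71%.

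Against the other chromosomes, 18 was among the dimmer ones. Of its identifiers 15.5% were bright, against 18.5% on the other 19 chromosomes together (1 to 17, 19 and X). It ranked the fifth lowest of 20, after chromosomes 13 (9.88%), 4 (13.1%), 8 (14.7%) and 2 (15.3%), and far from 19 (27.8%), 17 (27.9%) and 16 (28.3%). On single arrays the chromosome 18 share was 15.1% and 15.2% (labelled STMN1) and 15.1% and 16% (vector). Its median level was 3.55, against 3.65 elsewhere. The gap lay in the identifiers without a single gene symbol, of which 7.36% were bright against 10.8% elsewhere. Of protein-coding genes, 39.8% were bright on chromosome 18 and 38.6% elsewhere, and chromosome 18 ranked 12 of 20 by this share. Among bright identifiers the median level was 8.30 on chromosome 18 and 8.04 on the other chromosomes.

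Promoters of its bright genes were richer in CpG than those of its dim genes. The 85 bright protein-coding genes with a RefSeq promoter had a median of 25 CpG in the 250 bases and GGGCGG in 72.9%. For the 131 dim ones the values were 18 CpG and 51.1%. On the other chromosomes the same sets gave 22 CpG with 70.4% (bright) and 13 CpG with 48.6% (dim), so the order was the same there. Promoters were found for 89.6% of the protein-coding genes of the chromosome.

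By gene group, the genes known from other tissues stayed near the bottom of the scale. None of 16 such genes was bright, among them TTR of liver and choroid plexus, AQP4 and MBP of glia, and the melanocortin receptors MC2R, MC4R and MC5R. Their mean levels ran from 2.94 to 4.20. None of 16 miRNA genes was bright either, with means from 1.88 to 4.83, and only 1 of 39 long noncoding RNAs was, DLGAP1-AS1. By contrast all 4 small nucleolar and Cajal body RNAs, which guide the modification of other RNAs, were bright, with means between 8.41 and 15.17. The highest levels of the chromosome belonged to SNORD58A, with 14.90 and 15.16 on the arrays labelled STMN1 and 15.48 and 15.16 on the vector arrays, and to an identifier shared by SNORD58B and RPL17, with 14.89, 14.67, 14.81 and 15.20 in the same order.

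The question of the comparison is which chromosome 18 transcripts differ between the cells labelled STMN1 and the vector cells. No single one passed the threshold. Of 714 chromosome 18 identifiers tested in a limma fit over 44844 identifiers, 0 were higher and 0 lower at an adjusted p under 0.05, as in the whole table (0% called in either direction), and the smallest adjusted p was 0.549. Without adjustment, 17 (2.38%) had a p under 0.05 on the higher side and 29 (4.06%) on the lower side, against 2.56% higher and 3.38% lower over all identifiers tested. The remaining 286 identifiers were too dim to be tested, lying under the 25th percentile of mean signal. Distances from the estimate to the bound of the 95% intervals of bright identifiers had a median of 0.481 (log2), which limits what 2 arrays a group can show.

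The bright identifiers of chromosome 18 as a group were slightly lower on the arrays labelled STMN1, but mainly through 1 array. With each array centred on all bright identifiers, the median relative log2 signal was 0.03 and -0.13 on the arrays labelled STMN1 (replicates 1 and 2) and 0.01 and 0.08 on the vector arrays. The groups overlapped, since STMN1 replicate 1 lay between the vector replicates and only STMN1 replicate 2 lay below them. The median difference was -0.09 (quartiles -0.29 and 0.09), a value second only to that of chromosome 1 (-0.27) in the lower direction, and 64.5% of identifiers were below 0 against 48.2% on the other chromosomes. Without STMN1 replicate 2 the median difference was -0.0026, and without the other arrays it was -0.16 to -0.05. The arrays labelled STMN1 differed from each other by 0.16, the largest gap within a group on any of the 20 chromosomes, followed by 0.155 between the vector arrays on chromosome 19.

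**Figure D2:**
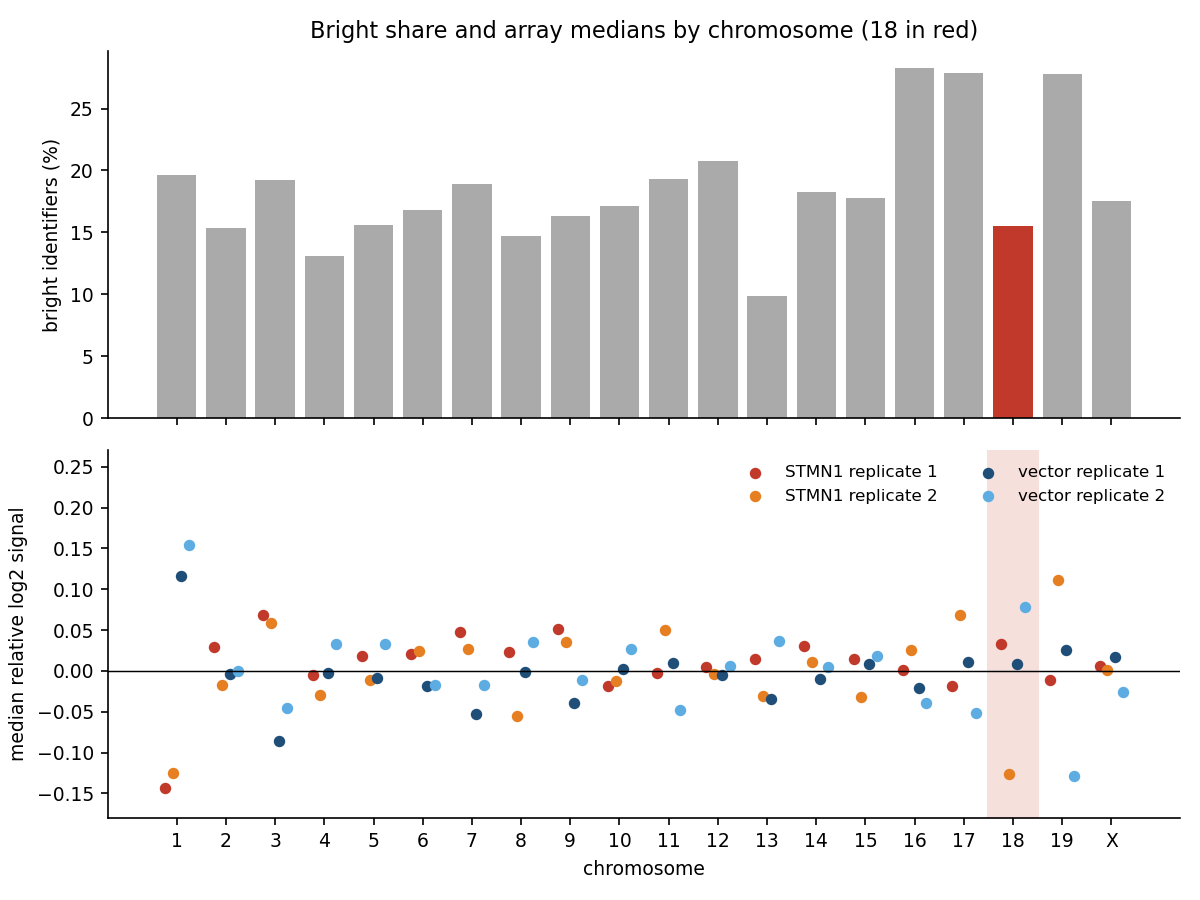
Percentage of bright identifiers (upper panel) and median relative log2 signal of bright identifiers on each of the 4 arrays (lower panel) for chromosomes 1 to 19 and X. Chromosome 18, in red, has 15.5% bright identifiers, and only its STMN1 replicate 2 point, at -0.13, lies below the vector points.

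The shift was of similar size at every brightness. For means of 6 to 8, 8 to 10 and over 10 the median differences were -0.10 (70 identifiers), -0.07 (50) and -0.07 (35), and STMN1 replicate 2 was at -0.13, -0.12 and -0.13. The other chromosomes gave 0.01, 0.0049 and 0.02 in the same classes. Across the bright identifiers of chromosome 18 the arrays labelled STMN1 correlated at r = 0.984 and the vector arrays at r = 0.976, while pairs from different groups gave 0.959 to 0.977. The other chromosomes gave 0.987, 0.985 and 0.979 to 0.985 in the same order. TC18000225.hg.1, with signals from 5.09 to 10.54, is among the chromosome 18 identifiers, and its part in these correlations was not tested. The points are identifiers, not independent replicates, and share their arrays.

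Single bright identifiers showed the same tilt. For 40 of 155 (25.8%) both arrays labelled STMN1 lay below both vector arrays, where 20.9% of all bright identifiers did. That 20.9% includes chromosome 1, where 49.6% of bright identifiers lay lower in this way. For 20 (12.9%) they lay above, where 21.4% of all bright identifiers did. In 7 of the 155, the mean of 1 group was under 6, so they were bright only through the other group, and 3 of these are among the lower and 1 among the higher. A difference of at least 2-fold in each of the 4 comparisons between an array labelled STMN1 and a vector array was seen for 1 lower and 0 higher identifiers, against 0.328% lower and 0.182% higher of all bright identifiers.

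Along the running number, the lower signal was not even. In 8 windows of 19 or 20 bright identifiers, the groups did not overlap in 3, all lower (37.5%, where 19.3% of all windows were lower and 25.1% higher in this way). Of windows outside chromosomes 1 and 18, 11.25% were lower and 27.5% higher. The clearest was the window from number 422 to 517, which includes SS18, the desmocollins and MYO5B on the minus strand of the long arm. It stood at -0.08 and -0.15 on the arrays labelled STMN1 and at 0.13 and 0.12 on the vector arrays. These array medians differed by -0.24 between the groups, and the median difference over its identifiers was -0.20. The window from number 222 to 313 stood at -0.05 and -0.04 against 0.04 and 0.10, but it crosses from the first run to the second. It thus joins plus-strand genes of the long arm end with minus-strand genes of the short arm end. The window from number 518 to 609 stood at 0.03 and -0.23 against 0.04 and 0.09, so its STMN1 replicate 1 was barely below the vector arrays. Without centring, 1 window had separate groups. The groups overlapped in the first windows (numbers 1 to 50, and 52 to 106), where the array medians differed by -0.01 and -0.0044. Over their identifiers the median differences were -0.02 and -0.09, the second as large as that of the whole chromosome.

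**Figure D3:**
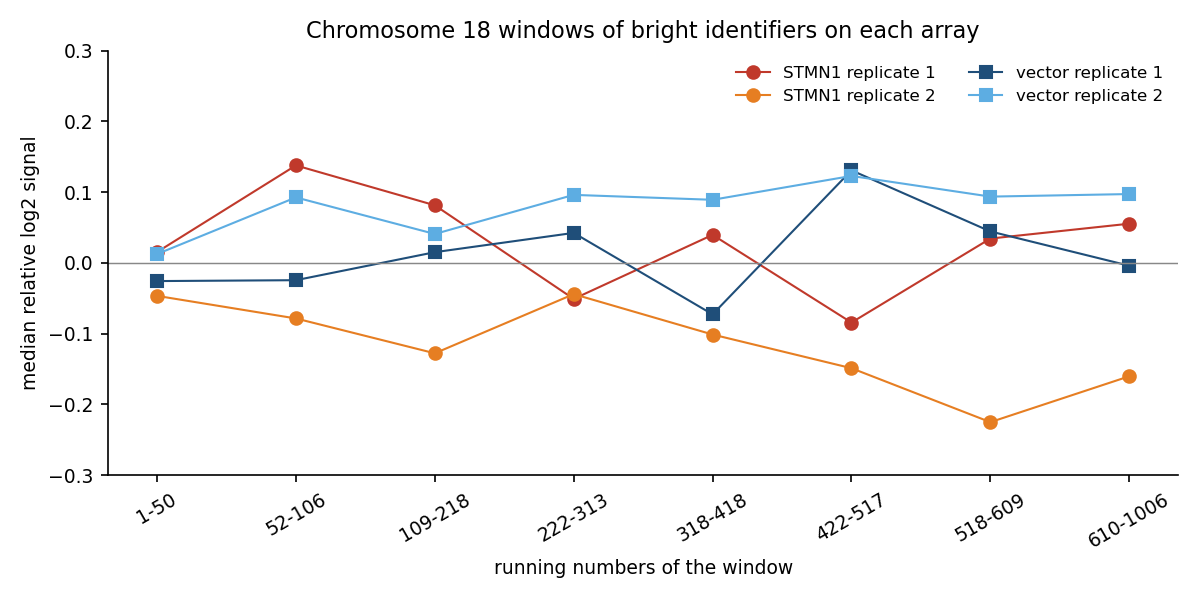
Median relative log2 signal of 8 windows of bright chromosome 18 identifiers, ordered by running number, on each array. The points of the arrays labelled STMN1 are circles and those of the vector arrays squares. The widest separation is at numbers 422 to 517, where the array medians of the groups differed by -0.24.

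Since both strands cover the same chromosome, the 106 bright genes with 1 symbol were also put in the order of their RefSeq positions, in a step chosen after the data had been seen. ROCK1, which lies next to the centromere on the long arm, was taken as the border of the arms. On the short arm, 5 of 35 genes (14.3%) were lower and 8 (22.9%) higher with groups that did not overlap. On the long arm, 25 of 71 (35.2%) were lower and 7 (9.86%) higher. Over all bright identifiers with 1 symbol, 21.9% were lower and 23.5% higher in this way. The difference between the arms was not tested.

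The median of the short arm genes was 0.09 and 0.01 on the arrays labelled STMN1 and -0.02 and 0.04 on the vector arrays. The short arm difference was -0.02, and it ran from -0.04 to 0.08 when single arrays were left out. The median of the long arm genes was -0.01 and -0.15 on the arrays labelled STMN1 and 0.07 and 0.08 on the vector arrays, so the groups did not overlap there. The long arm difference of -0.10 was -0.02 without STMN1 replicate 2 and -0.21 without STMN1 replicate 1. On the minus strand of the long arm (38 genes), 16 (42.1%) were lower and 2 (5.26%) higher, beside the 21.9% and 23.5% over all bright identifiers with 1 symbol, and the array medians were -0.06 and -0.19 against 0.11 and 0.10. On its plus strand (32 genes), 8 (25%) were lower and 5 (15.6%) higher, and the medians 0.07 and -0.10 against 0.03 and 0.04 overlapped.

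In 5 stretches of 21 or 22 genes from the short arm end to the long arm end, the median differences were -0.01, 0.05, -0.09, -0.19 and -0.14. The first, from ROCK1P1 to RNA5SP450, and the second, from NAPG to SLC35D4 across the centromere, had overlapping groups. The fourth, from TPGS2 to NARS1, stood at -0.04 and -0.16 on the arrays labelled STMN1 and at 0.14 and 0.08 on the vector arrays. The third, from RIOK3 to FHOD3, stood at 0.04 and -0.15 against 0.06 and 0.14, and the fifth, from ATP8B1 to ADNP2, at 0.06 and -0.17 against 0.10 and 0.08. These last groups were only just separate, while the arrays labelled STMN1 lay 0.19 and 0.23 apart, and the plus-strand genes alone overlapped in both stretches. In the fifth, 6 genes (28.6%) were lower and 0 higher, beside 21.9% and 23.5% over all bright identifiers with 1 symbol, and SERPINB5 and PHLPP1 were among them.

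**Figure D4:**
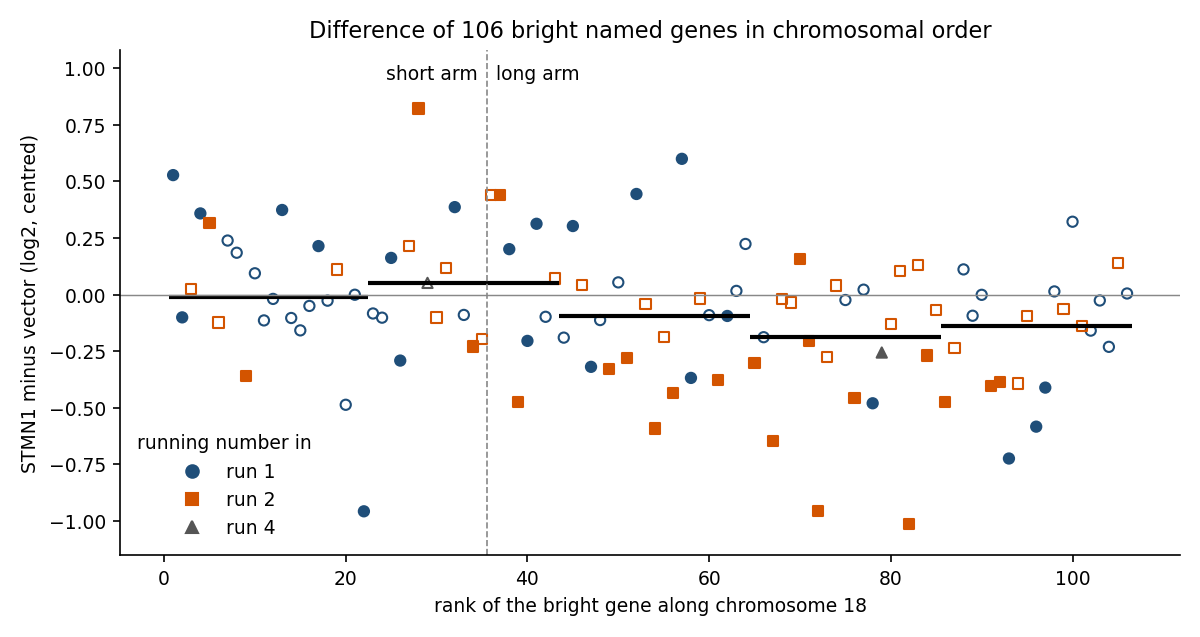
Centred log2 difference (labelled STMN1 minus vector) of 106 bright genes against their rank along chromosome 18, with filled symbols where the groups do not overlap and black bars for the medians of 5 stretches. The dashed line is the border of the arms, and the last 3 bars, at -0.09, -0.19 and -0.14, lie below 0.

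The lower signals included several neighbours in number. PHLPP1, a phosphatase that acts on AKT, gave 6.71 and 6.81 on the arrays labelled STMN1 and 7.23 and 7.77 on the vector arrays, a log2 difference of -0.74 (standard error 0.22). The next number, TC18000225.hg.1, has no symbol. It gave 5.35 and 5.09 on the arrays labelled STMN1 and 10.54 and 7.09 on the vector arrays, the largest difference of the chromosome at -3.60 (standard error 1.07). Its vector arrays lay 3.45 apart, about as far as the groups did, and without vector replicate 1 its difference was -1.88. It was the 1 bright identifier at least 2-fold lower in all 4 comparisons, but it passed the brightness limit only through the vector arrays (mean 8.82, against 5.22 on the arrays labelled STMN1), so it had to differ. The number after it, SERPINB5 or maspin, a serpin of epithelial cells, gave 8.50 and 8.27 against 8.93 and 9.03, a log2 difference of -0.60 (standard error 0.16). These 3 neighbours in number lay lower on both arrays labelled STMN1, while their adjusted p in limma ran from 0.698 to 0.742. In chromosomal order the bright minus-strand genes KDSR and VPS4B lie between PHLPP1 and SERPINB5. Their groups overlapped, with centred differences of -0.39 and -0.09.

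Small nucleolar RNAs were among the lowest. SNORA37, a guide RNA of the H/ACA class, gave 7.93 and 7.86 on the arrays labelled STMN1 and 8.68 and 9.17 on the vector arrays, a log2 difference of -1.03 (standard error 0.21, adjusted p of 0.601 in limma). Its neighbour in number, MBD2, which reads methylated DNA, gave 14.04 and 13.32 against 13.36 and 13.81 and overlapped. SNORD58C, a guide RNA of the C/D class from the introns of RPL17, gave 10.25 and 10.36 against 11.03 and 11.52, a log2 difference of -0.97 (standard error 0.21, adjusted p of 0.615 in limma). SNORD58A differed by -0.29 with overlapping groups, and SCARNA17, a Cajal body RNA, by -0.04. The SNORD58 genes have similar sequences, so their probes may share signal. In this list 2 of 4 bright members were lower without overlap and 0 higher (20.9% and 21.4% over all bright identifiers), with a median difference of -0.62 where all bright identifiers had a median of 0.01.

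Desmosomal cadherins did not move together. Of 7 on the chromosome, 4 were bright and 3 (DSG1, DSG4 and DSC1) lay between 3.15 and 3.52. DSG3 gave 9.55 and 9.63 on the arrays labelled STMN1 and 9.23 and 8.78 on the vector arrays, a log2 difference of 0.59 (standard error 0.20, adjusted p of 0.79 in limma). DSG2 gave 12.74 and 13.32 against 13.33 and 13.50, with a difference of -0.38. DSC2 gave 9.40 and 9.52 against 9.70 and 10.11, with a difference of -0.45. The DSG3 arrays labelled STMN1 thus lay above the vector arrays, while those of DSG2 and DSC2 lay below, DSG2 by a margin of under 0.01 between its nearest arrays. Of the 4 bright members, 1 was thus higher and 2 lower without overlap, beside 21.4% and 20.9% over all bright identifiers. DSC3 overlapped with a difference of -0.20. CDH2, the N-cadherin of mesenchymal and neural cells, stood just over the brightness limit at 6.05 and 6.24 against 6.44 and 7.05, with a difference of -0.60 (adjusted p of 0.843 in limma).

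Of the 8 clade B serpins listed, only SERPINB5 was bright. SERPINB13, another epithelial member, lay under the limit with 5.20 and 4.74 on the arrays labelled STMN1 and 5.44 and 5.37 on the vector arrays. SERPINB8 gave 5.63 and 5.30 against 5.17 and 5.13 and so lay the other way. SERPINB3 and SERPINB4, which are near-identical copies and cannot be separated with certainty, lay between 3.21 and 3.57 on every array.

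TGF-beta genes were split. SMAD4, the shared partner of the receptor-activated SMADs, gave 6.78 and 6.98 on the arrays labelled STMN1 and 7.002 and 7.29 on the vector arrays, a difference of -0.27. SMAD2, a receptor-activated SMAD, gave 9.25 and 9.31 against 9.12 and 9.15, a difference of 0.15. Neither passed the threshold (adjusted p of 1 for each in limma). SMAD7, the inhibitory member, was dim at 4.15 and 4.36 against 4.45 and 4.38. In the list of 7 genes, 4 were bright, 1 higher and 1 lower without overlap, near the 21.4% and 20.9% over all bright identifiers, and the median difference was -0.02.

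Genes of the spindle, the centrosome and microtubules, the system on which stathmin acts, showed no common direction. Of 13, 8 were bright, with a median difference of -0.03. Of these, 2 were higher and 2 lower without overlap, near the shares of 21.4% and 20.9% over all bright identifiers. SEH1L, a nucleoporin that also serves kinetochores, gave 11.87 and 11.99 against 11.50 and 11.62, a log2 difference of 0.37 (standard error 0.15, adjusted p of 0.843 in limma). ESCO1, which acetylates cohesin, gave 6.38 and 6.88 against 5.92 and 6.49, and was separated only after centring. TPGS2, a subunit of the tubulin polyglutamylase, gave 9.72 and 10.03 against 10.16 and 10.23, and TUBB6, a beta-tubulin, gave 8.98 and 9.55 against 9.53 and 9.61, separated only after centring. NDC80 of the kinetochore overlapped, at 9.52 and 9.79 against 9.59 and 9.28. MAPRE2, a microtubule plus-end binding protein under the brightness limit, gave 5.26 and 5.56 against 6.08 and 5.78.

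Among actomyosin genes, SPIRE1, an actin nucleator, had the largest higher value of any named gene of the chromosome. It gave 10.49 and 9.79 on the arrays labelled STMN1 and 9.14 and 9.52 on the vector arrays, a log2 difference of 0.81 (standard error 0.28, adjusted p of 0.795 in limma). Its arrays labelled STMN1 lay 0.70 apart, and without STMN1 replicate 1 its difference was 0.46. Of the 7 genes in the actomyosin list 6 were bright, with a median difference of 0.16. Among these, 1 was higher and 1 lower without overlap, near the 21.4% and 20.9% over all bright identifiers. MYO5B, a motor of recycling vesicles, gave 7.04 and 6.99 against 7.38 and 7.59. ROCK1P1, a partial copy of the kinase gene ROCK1 and outside that list, gave 6.74 and 6.92 against 6.43 and 6.20, a difference of 0.52. ROCK1 itself overlapped at 8.28 and 9.13 against 8.35 and 8.20, and the similarity of the pair leaves the source of either signal uncertain.

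In the mitochondrial list 8 of 9 genes were bright, 3 lower and 0 higher without overlap (20.9% and 21.4% over all bright identifiers), with a median difference of -0.03. ME2, a malic enzyme of the matrix, gave 9.25 and 8.96 against 9.54 and 9.65, and FECH, the last enzyme of haem synthesis, gave 6.06 and 6.05 against 6.16 and 6.51. AFG3L2, a protease of the inner membrane, overlapped at 11.09 and 10.78 against 10.56 and 10.91. In the membrane traffic list 11 of 13 were bright, with a median of -0.10. The 2 lower ones are near the 20.9% over all bright identifiers, and 0 were higher, where 21.4% were over all. LMAN1, a cargo receptor for glycoproteins, gave 9.92 and 10.37 against 10.53 and 10.59. RAB27B, a secretory GTPase below the brightness limit, gave 4.69 and 5.08 against 5.69 and 5.88, a log2 difference of -0.90 (standard error 0.19, adjusted p of 0.615 in limma), and was singled out after its values were seen.

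Of the transcription and chromatin list 6 of 16 were bright, with a median of 0.05, and the 1 higher and 1 lower are near the 21.4% and 20.9% over all bright identifiers. GATA6, a factor of foregut tissues, gave 8.75 and 8.77 against 8.32 and 8.60, and SS18, a subunit of the BAF chromatin remodelling complex, gave 10.03 and 9.99 against 10.22 and 10.38. TAF4B, a TFIID subunit outside that list, gave 8.19 and 8.03 against 7.37 and 7.98, with its nearest arrays 0.04 apart. BCL2, which blocks apoptosis, was dim at 4.63 and 4.54 against 4.54 and 4.61. PMAIP1, which promotes apoptosis, was also under the brightness limit, at 5.34 and 5.59 against 5.64 and 6.27 (adjusted p of 0.955 in limma). Its vector arrays lay 0.64 apart. In the apoptosis and NF-kB list of 4 genes only MALT1 was bright, and its groups overlapped with a centred difference of -0.09.

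Identifiers without a symbol were also among those with the largest differences. TC18000313.hg.1 had the largest higher value, at 6.98 and 6.75 on the arrays labelled STMN1 against 5.20 and 6.02 on the vector arrays, a log2 difference of 1.25 (standard error 0.30, adjusted p of 0.656 in limma). It was bright only through the arrays labelled STMN1 (mean 6.86, against 5.61 on the vector arrays), which put it in this ranking. TC18000518.hg.1 lay lower at 9.62 and 9.48 against 10.04 and 10.52. TC18000118.hg.1 gave 6.22 and 6.34 against 6.57 and 7.35, a difference of -0.68 that was -0.29 without vector replicate 2. TC18000674.hg.1 gave 7.94 and 8.67 against 9.09 and 8.83, a difference of -0.66 that was -0.29 without STMN1 replicate 1. The remaining named ones lay higher, with differences that also rested on single arrays. TC18000097.hg.1 gave 7.22 and 7.74 against 6.71 and 7.29, overlapping as deposited, and its difference of 0.48 was 0.19 without vector replicate 1. TC18000595.hg.1 gave 6.81 and 7.17 against 6.68 and 6.49, and its difference of 0.41 was 0.23 without STMN1 replicate 2. TC18000608.hg.1 gave 9.92 and 9.65 against 9.44 and 9.33, and its difference of 0.40 was 0.26 without STMN1 replicate 1. Leaving out 1 array moved the difference by over 1.5 times for 16 of the 22 named identifiers. The 5S ribosomal RNA pseudogene RNA5SP450 differed by -0.97, but its vector arrays lay 1.48 apart and the groups overlapped as deposited. PSTPIP2, an adaptor of the actin cytoskeleton, gave 6.30 and 6.03 against 6.70 and 6.95, a log2 difference of -0.66.

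**Figure D5:**
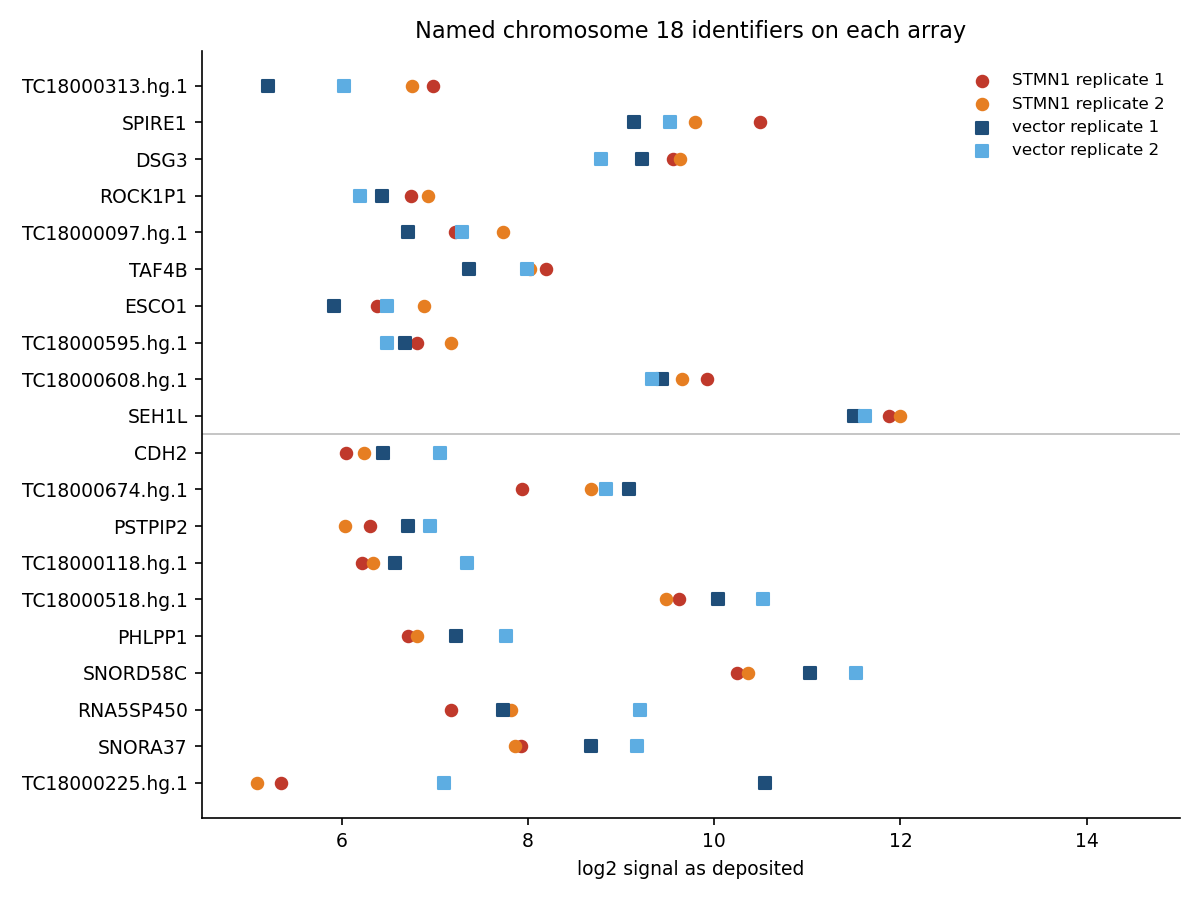
Log2 signal as deposited on each of the 4 arrays for the 20 named chromosome 18 identifiers, the 10 highest differences above the line and the 10 lowest below it. TC18000225.hg.1 has the widest span, from 5.09 to 10.54.

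Some chromosome 18 signals cannot be assigned to the chromosome. Values identical on all 4 arrays were shared with identifiers of other chromosomes for 8 chromosome 18 identifiers. They belong to 7 sets of 2 to 27 identifiers, and only 1 bright value is among them. Leaving them out gave a median difference of -0.09 and a bright share of 15.5%.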

How the data were processed

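Each of 4 samples gave 0.2 µg of RNA for Cy3 labelling, per the labels' protocols. The submitters' processing notes name Agilent Feature Extraction 10.7.1.1, while the identifiers have the form of Affymetrix transcript clusters. How background was corrected and arrays normalized, and on which build, is not given in the sources used here. What the authors deposited is 1 log2 signal per identifier and array, without detection calls. The array medians lay between 3.60 and 3.72, and 18.2% to 19.1% of identifiers reached 6. The number of arrays limits the precision.

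Gene symbols came from the platform annotation, updated through RefSeq. Identical rows were counted once within a chromosome, and over the whole table for the fit. Identifiers under the 25th percentile of the mean were left out, and the 2 groups were compared with limma 3.58.1 (lmFit and eBayes in R 4.3.3, without a replicate block, two-sided, Benjamini-Hochberg over 44844 identifiers, threshold 0.05), a fit tested on simulated data. Relative signals by chromosome, window and arm are medians against each identifier's mean, with arrays centred on the bright identifiers of 20 chromosomes. Differences by chromosome, arm and stretch of genes are medians over identifiers, and those by window are differences of array medians unless stated. Neither kind of difference carries a test. The named identifiers are the 10 largest differences each way among bright ones whose centred groups do not overlap, and the 2 highest levels. Values of other genes come from lists by function. Members and lists were chosen with earlier results of these data known. Alternatives covered scaling, filter, brightness limit, window size, centring, the replicate block and leaving out arrays.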

Additional observations from a re-analysis of the deposited data

How the results depend on the processing

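The counts of chromosome 18 identifiers called higher and lower were 0 in limma under all 12 alternatives run. With the replicate block, 23 were higher and 36 lower at an unadjusted p, against 17 and 29 without it, and no call changed. The labels do not say that a number marks a shared batch, and deviations of same-numbered arrays had a correlation of 0.138 (tested identifiers) or -0.102 (bright ones). With only identifiers of a mean of at least 6, the unadjusted counts were 4 and 7, since fewer were tested. Leaving out single arrays gave 12 to 21 higher and 17 (without STMN1 replicate 1) to 51 (without vector replicate 1) lower, with the spread of a lone array taken from the remaining group. The cause was not tested. The median difference of bright identifiers ran from -0.16 to -0.0026 when single arrays were left out, from -0.12 to -0.08 under all other alternatives. Windows with separate groups numbered 3 as reported, 1 with a limit of 7 and 1 without centring. The bright share was 21.7% with a limit of 5 and 11.3% with a limit of 7, as the limit sets it. The median level stayed between 3.53 and 3.58. The 22 named identifiers kept their direction and stayed short of the threshold in all 264 refits, with a lowest adjusted p of 0.0537 in limma. Without detection calls, signals near the bottom of the scale are not shown to lie above background.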
